A study of Homo sapiens with 4 samples.

Results

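Integrins and laminins are partners in the attachment of cells to basement membrane, and GATA3 ChIP-seq positions were examined at 37 genes that encode their chains. The genes were fixed by name, with 18 integrin α chains, 8 integrin β chains and 11 laminin chains, out of 20033 protein-coding genes of the GENCODE annotation. A position was counted at a gene when it lay in the gene body, lay within 50 kb of the 5′ end of the gene in hg38, or carried the symbol of the gene in the authors' list. A region was called shared when the replicates had positions within 100 bp of each other. By this rule 16 of the 37 genes had a shared region, and 27 of the 9145 shared regions of the series were at these genes.

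The cells were H1, a single established line of human embryonic stem cells (hESCs), kept on growth factor-reduced Matrigel in mTeSR1. Both GATA3 ChIP replicates, and the input chromatin of each, came from cells given BMP4 at 50 ng/ml for 6 h, so that no untreated ChIP was available for comparison here. ChIP and input therefore share the treatment, and the input entered only through the peak calling by the authors. The identity of the cells could not be checked against marker genes, because the files hold positions and no expression.

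Each integrin is a pair of an α and a β chain that spans the membrane, binding matrix or another cell outside and the actin cytoskeleton inside. Each laminin is a trimer of an α, a β and a γ chain, secreted into the basement membrane. In human pluripotent cells the integrin of the ITGA6 and ITGB1 chains is a main receptor for laminin, the pairs ITGA5 with ITGB1 and ITGAV with ITGB5 bind fibronectin and vitronectin, and Matrigel is itself rich in laminin. GATA3 is a transcription factor that recognises WGATAR, where W is A or T and R is A or G.

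The list of replicate 1 held 18456 positions on the 24 chromosomes and that of replicate 2 held 12782. Each position is 1 base with no score, so that binding was scored as present or absent, and read depth could not be read from the files. Intervals below are 95% intervals (Wilson for shares, exact Poisson for densities) and cover counting error only.

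The first question was whether integrin and laminin genes were bound more often than other genes of their size. Shared regions were found at 43.2% of the 37 genes (95% CI 28.7 to 59.1), against 33.0% of all protein-coding genes. The listed genes are long, with a median of 81.7 kb against 27.5 kb, and a long gene offers more sequence to be bound. Protein-coding genes of similar length, meaning the same 1 of 10 equal bins of genes by length, carried a shared region in 38.7% of cases, which corresponds to 14.3 of 37 genes. The count of 16 was therefore close to the background, and the interval includes it. Each replicate was also counted without regard to the other. Replicate 1 had a position at 21 of the genes (56.8%), against 50.8% of all protein-coding genes and 57.4% at similar length. Replicate 2 had one at 19 (51.4%), against 40.8% and 47.1%.

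By count alone, the chain families lay on different sides of that background. Among the integrins 13 of 26 genes had a shared region (50.0%, with 36.5% at similar length), made up of 8 of 18 α chains (44.4%, with 37.6%) and 5 of 8 β chains (62.5%, with 34.1%). Among the laminin chains it was 3 of 11 (27.3%, with 43.8%). The shares at similar length correspond to 9.49 of the 26 integrin genes and 4.81 of the 11 laminin genes. The differences are therefore of a few genes. No test was made of them, no interval was computed for the families, and the counts are small.

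**Figure D1:**
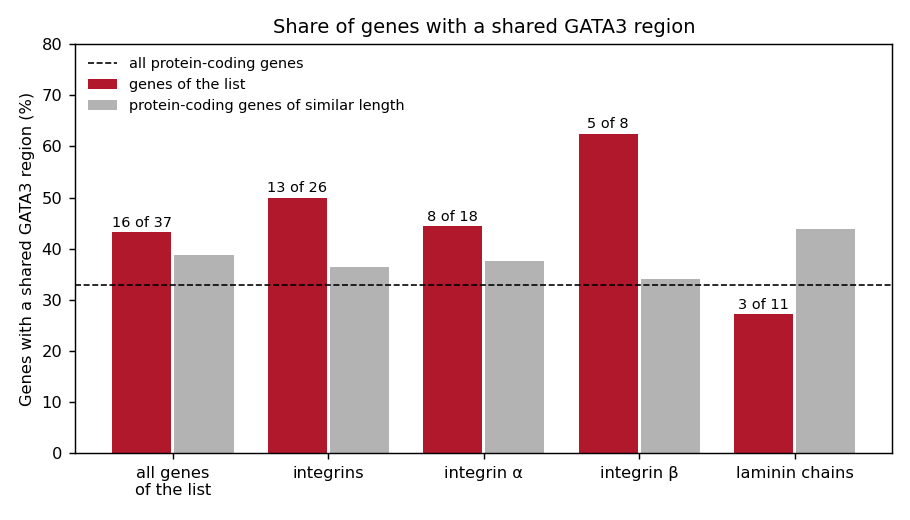
Percentage of genes with a shared GATA3 region, for the listed genes (red bars, with counts) and for protein-coding genes in the same length bins (grey bars). The dashed line is the 33.0% of all protein-coding genes, and the red bar exceeds the grey one for α and β integrin chains and falls below it for laminin chains.

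Per length of sequence, the windows of the 37 genes covered 5.94 Mb once overlaps were merged and held 26 shared regions, or 4.38 per Mb (95% CI 2.86 to 6.41). The windows of all protein-coding genes held 3.41 per Mb and the chromosomes without assembly gaps 3.11 per Mb, both inside that interval. The remaining region, at ITGB6, lay outside the window and was counted through the authors' gene name.

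The replicates were compared position by position at these genes. Of 43 positions of replicate 1, 27 (62.8%, 95% CI 47.9 to 75.6) had a partner in replicate 2, against 49.6% over the whole list. Of 33 positions of replicate 2, 27 (81.8%, 95% CI 65.6 to 91.4) had a partner in replicate 1, against 71.5% over the whole list. Both whole-list values lay inside the intervals. Partners were a median of 24 bp apart, with a range from 3 to 79 bp, and the median over all shared regions was 23 bp.

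**Figure D2:**
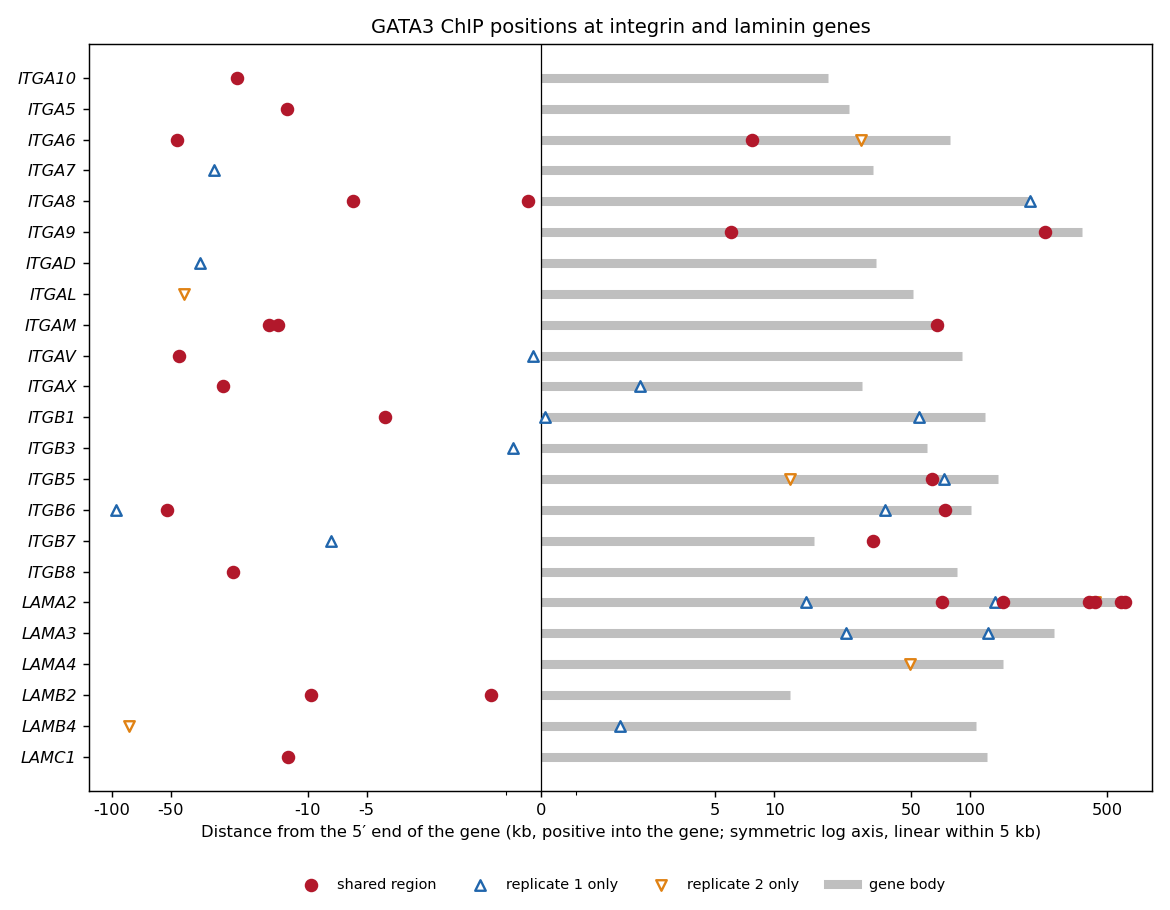
Positions of GATA3 ChIP replicates at the 23 listed genes that had any, by distance from the 5′ end of the gene in kb (symmetric log axis, positive into the gene, grey bar the gene body). Red circles are shared regions, and open triangles are positions of 1 replicate, including those at the 5′ ends of ITGAV, ITGB1 and ITGB3.

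Shared regions lay mostly away from the 5′ ends. Of the 28 pairs of a gene and a shared region, 14 were upstream by more than 1 kb, 12 in introns, 1 downstream of the gene and 1 at a promoter, here within 1 kb of the 5′ end. This split was not counted over all protein-coding genes, so it cannot be called particular to these genes. A shared region within 10 kb of the 5′ end was present at 5 of the 37 genes (13.5%), ITGA6, ITGA8, ITGA9, ITGB1 and LAMB2, against 8.69% of all protein-coding genes. At 7 genes there were 2 or more shared regions (18.9%), against 9.67% of all protein-coding genes and 12.5% at similar length.

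ITGA8 encodes an α chain that recognises the RGD sequence of matrix proteins such as nephronectin, and had the only shared region at a promoter. Replicate 1 was at 15720284 and replicate 2 at 15720287 on chromosome 10, 0.363 kb upstream of the 5′ end. A further shared region was 5.88 kb upstream, at 15725819 and 15725788. Another position, 15518464 in intron 29, was of replicate 1 alone and 45.3 kb from the nearest position of replicate 2. The sequences show the GATA site at each shared region, and as in all sequences printed here WGATAR on either strand is in capitals and the plus strand of hg38 is read. Each stretch of 60 bp is placed on the WGATAR match nearest to the region's centre, not on the centre itself.
ITGA8 0.363 kb upstream, chr10:15720252-15720311: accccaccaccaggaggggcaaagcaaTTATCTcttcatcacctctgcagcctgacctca
ITGA8 5.88 kb upstream, chr10:15725805-15725864: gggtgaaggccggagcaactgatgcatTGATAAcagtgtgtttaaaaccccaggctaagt
The promoter site is AGATAA on the minus strand, the strand of the gene, and its centre is 4 bp from the region centre.

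ITGA6, the laminin-binding α chain abundant on hESCs, had 2 shared regions. One was in intron 1, 7.74 kb inside the gene, at 172435064 in replicate 1 and 172435133 in replicate 2 on chromosome 2. The other was 46.3 kb upstream, at 172381079 and 172381091. Replicate 2 had a further position in intron 1, 172455082, which was 20 kb from any of replicate 1. Of the 200 protein-coding genes nearest in length, 6.50% had 2 or more shared regions. With replicates within 50 bp, only the region 46.3 kb upstream remained.
ITGA6 intron 1, chr2:172435043-172435102: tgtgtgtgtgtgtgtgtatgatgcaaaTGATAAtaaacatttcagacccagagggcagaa
ITGA6 46.3 kb upstream, chr2:172381079-172381138: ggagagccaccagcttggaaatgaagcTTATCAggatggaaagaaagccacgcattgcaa
The intron 1 region was the only 1 of the 27 with the octamer ATGCAAAT, the recognition sequence of POU factors such as OCT4, and the octamer overlaps the GATA site there. Over all shared regions 5.10% held an octamer.

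ITGB1, the β chain that pairs with most α chains of matrix receptors, had 1 shared region, at 33010252 in replicate 1 and 33010265 in replicate 2 on chromosome 10. It lay 4.47 kb upstream of the gene's 5′ end in GENCODE. The canonical transcript of ITGB1 starts 47.6 kb further downstream, so that the region is 52.0 kb from that start. Replicate 1 alone had a position 0.118 kb inside the 5′ end, 33005674, and another at 32950917. The nearest position of replicate 2 was 4.59 kb from the former and 59.3 kb from the latter.
ITGB1 4.47 kb upstream, chr10:33010233-33010292: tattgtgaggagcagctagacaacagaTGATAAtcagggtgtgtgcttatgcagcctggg
There were 3 WGATAR matches in the 200 bp window of this region, with the nearest 4 bp from its centre.

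ITGA5 and ITGAV, the α chains named above for fibronectin and vitronectin, had no shared region within 10 kb of the 5′ end. ITGA5, which binds fibronectin, had 1 shared region 12.8 kb upstream, at 54432133 and 54432077 on chromosome 12. These positions were 56 bp apart, and the region was lost when replicates had to lie within 50 bp. The same limit removed the intron 1 region of ITGA6, those of LAMA2 in introns 18 and 27, and that of ITGAM 15.7 kb upstream, which left 22 of the 27 regions. ITGAV, the α chain shared by several vitronectin receptors, had 1 shared region 45.6 kb upstream, at 186544357 and 186544389 on chromosome 2. Its position 0.215 kb upstream of the 5′ end, 186589795, was of replicate 1 alone. ITGB5, the β partner of ITGAV, had 1 shared region in intron 5, 63.6 kb into the gene, at 124837822 and 124837832 on chromosome 3. The remaining ITGAV partners also differed, since ITGB6 had 2 shared regions, ITGB8 had 1 and ITGB3 had none.

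ITGB6, the β chain of an epithelial receptor that releases TGFβ from its latent complex, had a shared region in intron 11, at 160126087 and 160126100 on chromosome 2. Its second shared region, 160252454 and 160252495, was 52.2 kb upstream, just beyond the 50 kb window, and was counted by the authors' name alone. Replicate 1 had a further position in intron 7 and one 95.5 kb upstream. Among the 200 protein-coding genes nearest in length to ITGB6, 10.5% had 2 or more shared regions. ITGB8 had its shared region 24.0 kb upstream, at 20306701 and 20306719 on chromosome 7. ITGB3, the β chain of the platelet receptor, had only a position of replicate 1, 0.801 kb upstream, and the nearest position of replicate 2 was 250 kb away.

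ITGA9, an α chain that binds tenascin and other ligands in mesenchymal and lymphatic cells, had 2 shared regions in a gene of 371 kb. The first was in intron 1, 6.00 kb inside, at 37458135 and 37458103 on chromosome 3. The second was in intron 18, at 37694188 and 37694216. Of the 200 protein-coding genes nearest in length, 40.5% had 2 or more, and the value for ITGA8, a gene of 206 kb, was 25.0%.
ITGA9 intron 1, chr3:37458082-37458141: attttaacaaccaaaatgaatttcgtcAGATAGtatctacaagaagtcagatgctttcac

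LAMA2, the laminin α chain of muscle and peripheral nerve basement membrane, carried the most shared regions of the list. It is also the longest gene in it, at 633 kb. There were 8 positions in replicate 1 and 7 in replicate 2, which formed 6 shared regions, each in an intron. In intron 1 they were 71.7 kb into the gene, at 128954813 and 128954799 on chromosome 6, and 147 kb, at 129030002 and 129030008. The next were 403 kb in intron 18, at 129286198 and 129286252, and 435 kb in intron 27, at 129318442 and 129318495. The last were 589 kb in intron 51, at 129472457 and 129472476, and 619 kb in intron 58, at 129501684 and 129501708. With replicates within 50 bp, 4 of the 6 remained. None was within 50 kb of the 5′ end, and the position nearest to it, 14.5 kb inside, was of replicate 1 alone. Among the 200 protein-coding genes nearest in length, 4.50% had 6 or more shared regions. Each region had between 0 and 2 WGATAR matches in 200 bp, and the sequences are shown in the order of the gene.
LAMA2 intron 1, chr6:128954799-128954858: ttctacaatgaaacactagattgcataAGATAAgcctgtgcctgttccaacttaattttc
LAMA2 intron 1, chr6:129029998-129030057: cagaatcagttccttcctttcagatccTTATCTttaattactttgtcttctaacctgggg
LAMA2 intron 18, chr6:129286219-129286278: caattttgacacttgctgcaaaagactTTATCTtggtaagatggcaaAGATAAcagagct
LAMA2 intron 27, chr6:129318439-129318498: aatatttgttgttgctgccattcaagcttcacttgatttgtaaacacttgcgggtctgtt
LAMA2 intron 51, chr6:129472446-129472505: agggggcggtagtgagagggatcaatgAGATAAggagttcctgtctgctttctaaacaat
LAMA2 intron 58, chr6:129501743-129501802: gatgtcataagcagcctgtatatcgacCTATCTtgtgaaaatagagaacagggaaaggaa
The region in intron 27 had 0 WGATAR matches in 200 bp, was the only such region of the 27, and is shown around its centre. That in intron 58 had its single match 76 bp from the centre, so that both replicate positions lie outside the stretch printed for it.

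The other laminin genes with shared regions were LAMB2, the β chain of synaptic and kidney basement membranes, and LAMC1, the γ chain common to most laminins. LAMB2 is the shortest gene of the list, at 12 kb, and had 2 shared regions. One was 1.43 kb upstream, at 49134557 and 49134542 on chromosome 3, and the other 9.65 kb upstream, at 49142745 and 49142788. Of the 200 protein-coding genes nearest in length, 5% had 2 or more. The more distant LAMB2 region lies in repeated sequence, described below, and that share was not computed without it. LAMC1 had 1 shared region 12.6 kb upstream, at 183010788 and 183010782 on chromosome 1.
LAMB2 1.43 kb upstream, chr3:49134523-49134582: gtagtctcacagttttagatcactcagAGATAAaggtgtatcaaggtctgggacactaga
LAMA1, LAMA5 and LAMB1, which with LAMC1 form the laminins of early embryonic basement membranes, had 0 positions in either replicate.

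**Figure D3:**
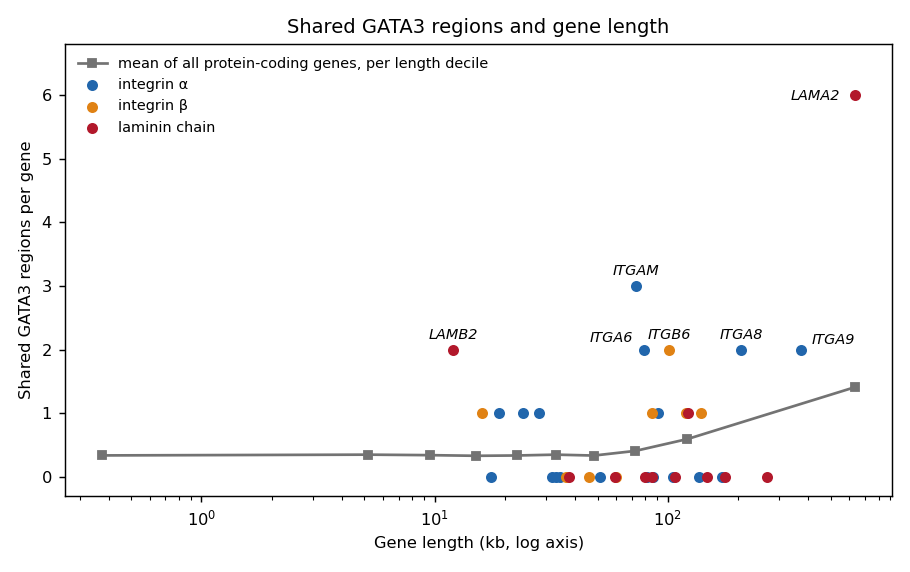
Number of shared GATA3 regions per gene against gene length in kb (log axis). Coloured points are the 37 listed genes, with those at 2 or more named, and the grey line is the mean of all protein-coding genes in each length bin. LAMA2 stands at 6, and LAMB2 reaches 2 at a length of 12 kb, with its more distant region in repeated sequence.

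Of the 5 α chains of leukocyte integrins, 4 are on chromosome 16 and ITGAE is on chromosome 17. A shared region was present at 2 of the 5 (40.0%), with 29.2% at similar length. ITGAM, the α chain of a complement receptor, had 3, of which 2 were upstream, 15.7 kb (31244331 and 31244252) and 14.2 kb (31245753 and 31245737), and 1 was in intron 22. Of the 200 protein-coding genes nearest in length, 2.50% had 3 or more. The region 14.2 kb upstream lies in repeated sequence, described below, and that share was not computed without it. With replicates within 50 bp, ITGAM had 2. The intron 22 region, at 31327996 and 31328027, lay 27.1 kb upstream of ITGAX, was named for ITGAX by the authors, and was the only region counted at 2 listed genes. ITGAX and the neighbouring ITGAD both counted the position of replicate 1 at 31357964, in intron 5 of ITGAX, which had no partner. ITGAL had 1 unshared position of replicate 2, and ITGAE had none.

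Some regions were nearer to another gene. The nearest protein-coding 5′ end was that of a listed gene for 20 of the 27 regions and another gene for 7. Neither this count nor the authors' naming was set against all shared regions. ARHGAP18 was nearest to the LAMA2 regions in introns 27, 51 and 58. PLA2R1 was nearest to the ITGB6 region in intron 11, and CTDSPL to the ITGA9 region in intron 18. The only shared region of ITGA10, a collagen-binding α chain of cartilage, was 22.9 kb upstream of it and 5.31 kb upstream of RBM8A. That of ITGB7, a β chain of lymphocytes, was downstream of the gene and 5.30 kb upstream of ZNF740. The authors had given a listed gene's name to 11 of the 27.

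A shared region was not found at 21 of the 37 genes, and at 14 of these neither replicate had a position. Over all protein-coding genes, replicate 1 had a position at 50.8% and replicate 2 at 40.8%. The share of all protein-coding genes with none in either replicate was not computed. The absence at the 14 therefore cannot be called particular to these genes. The 14 were ITGA1, ITGA2, ITGA2B, ITGA3, ITGA4, ITGA11, ITGAE, ITGB2, ITGB4, LAMA1, LAMA5, LAMB1, LAMB3 and LAMC3. Of the 4 collagen-binding α chains 1 had a shared region (25.0%, with 45.0% at similar length), which was ITGA10. ITGA3 and ITGB4, chains of laminin receptors in epithelia, were among the 14, as was LAMB3 of the epidermal laminin. The other 7 had unshared positions: ITGA7, ITGAD, ITGB3 and LAMA3 of replicate 1, ITGAL and LAMA4 of replicate 2, and LAMB4 of both, 84.0 kb apart. The nearest shared region of the 21 genes was between 58.4 kb (ITGAD) and 626 kb (ITGA1) from the 5′ end, with a median of 220 kb.

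The recognition sequence was examined next, because the rule had not used it. At least 1 WGATAR was present in the 200 bp around the centre at 26 of the 27 regions (96.3%, 95% CI 81.7 to 99.3). The share over all shared regions was 82.0%, a value just inside the interval. The stricter AGATAA was present at 13 (48.1%, 95% CI 30.7 to 66.0), against 51.6%. A pair or more of WGATAR matches was present at 11 (40.7%), against 34.6%. The nearest match was within 20 bp of the centre in 15 regions (55.6%), against 45.5% of all shared regions. Median GC content was 45.0%, against 44%. The SMAD element GTCTG was present at 12 regions (44.4%, 95% CI 27.6 to 62.7), against 36.1%. Sequences of 3 other factor families were also searched. The TEAD element GGAATG was present at 6 regions (22.2%, 95% CI 10.6 to 40.8), against 18.9%. A SOX sequence was present at 5 (18.5%, 95% CI 8.18 to 36.7), against 13.3%. For AP-1 it was 2 (7.41%, 95% CI 2.06 to 23.4), against 5.64%. The unshared positions at these genes held WGATAR in 11 of 16 cases for replicate 1 (68.8%, 95% CI 44.4 to 85.8) and 4 of 6 for replicate 2 (66.7%, 95% CI 30 to 90.3), and all unshared positions of the lists did so in 72.9% and 67.0%. The 3 positions of replicate 1 at the 5′ ends of ITGAV, ITGB1 and ITGB3 held 0, 0 and 2 matches.

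**Figure D4:**
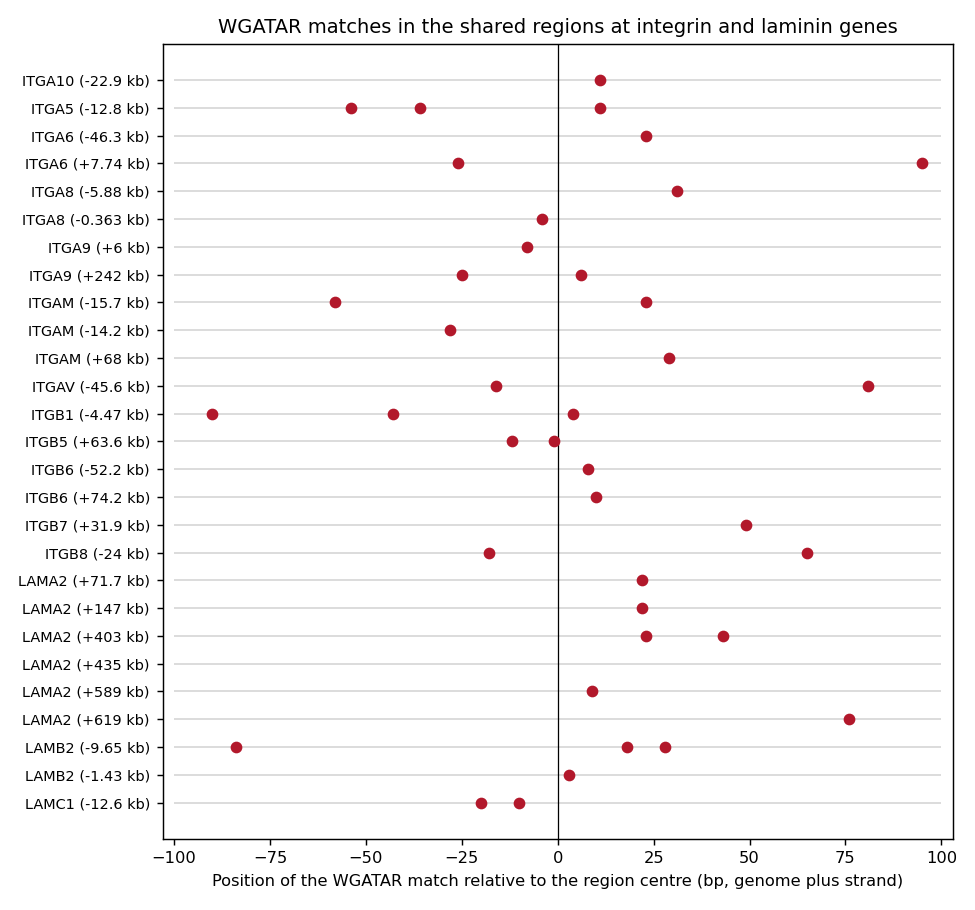
WGATAR matches on either strand (red points) in the 200 bp around the centre of each of the 27 shared regions, in bp from the centre, with the gene and the distance from its 5′ end in kb at the left. Matches cluster near the centre, and the LAMA2 region at 435 kb has none.

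Some of the regions lay in sequence that is repeated in the genome, which was examined after the data had been seen. The regions 12.6 kb upstream of LAMC1, 9.65 kb upstream of LAMB2 and 14.2 kb upstream of ITGAM aligned to one another and to 1556 places on the chromosomes over at least 100 bases, of which 373 (24.0%) held a shared region. These are 4.08% of all shared regions, and 3 of the 27 regions described here (11.1%). The ITGA10 region was of a different repeated sequence, with 1121 places of which 35 (3.12%) held a shared region. The other 23 regions aligned at that length to 1 place only. Reads that map to several places had been removed by the authors, and the effect of that step on copies of these sequences was not tested. Without both sequences, 14 of 37 genes had a shared region, against 31.9% of all protein-coding genes and 37.4% at similar length. LAMC1 and ITGA10 lost their only one. LAMB2 kept the region 1.43 kb upstream and ITGAM kept 2.

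Genes that work with integrins were examined by the same rule. Among 20 adaptors that join the cytoplasmic tails to actin and to kinases, 11 had a shared region (55.0%), against 33.0% of all protein-coding genes and 39.4% at similar length. CIB1, a calcium-binding protein, had one 0.402 kb upstream of its 5′ end, ILK, the integrin-linked pseudokinase, had 2, the nearer 3.70 kb inside the gene, and SRC, the tyrosine kinase, had one 5.25 kb upstream. Both talins differed, since TLN2 had 2 shared regions and TLN1 had 0, and all 3 kindlins (FERMT1, FERMT2 and FERMT3) had 0. PXN, which encodes paxillin, had 3. Among 12 integrin ligands other than laminins and collagens, 2 had a shared region (16.7%, with 33.6% at similar length). They were FBN1 and NPNT, and nephronectin, encoded by NPNT, is a ligand of the ITGA8 receptor, with its region 3.61 kb inside the gene. Fibronectin (FN1) had 0 positions in either replicate, and vitronectin (VTN) had 1 unshared position of replicate 2. Among 8 genes listed as basement membrane partners or receptors of laminin, 2 had one (25.0%, with 32.5%), HSPG2 and NID1. No test was made on these lists.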

How the data were processed

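GATA3 ChIP-seq was performed by the authors in 2 biological replicates of H1 hESC given BMP4. As the paper's methods describe, adapters were clipped (cutadapt) and single-end reads mapped to hg38 (bowtie). The authors removed duplicates, multiply mapped reads and ENCODE blacklist regions, and called peaks with MACS2 at a q-value threshold of 0.05 in each replicate against its own input. The deposited lists give 1 position per peak (start and end equal) and a gene name. Their lengths differ from the peak numbers given in the paper's methods, for a reason not given in the sources used here, and all counts here rest on the deposited lists. How a peak was reduced to a position, and whether bases count from 0 or 1, is not given in the sources used here, so positions are as deposited and windows may be off by 1 bp. Positions listed for several genes were counted once, and scaffolds were left out.

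Genes, 5′ ends and canonical transcripts were from GENCODE release 44 and sequence was from hg38, the build of the files. Linked positions formed a region, centred on the mean of the replicate positions. WGATAR was searched on both strands, and windows were aligned with blastn 2.17.0 (minimum 100 bases). In RefSeq promoters (GRCh38.p14, 250 bases before to 50 after the start), 26 of the 37 genes matched, and none of those promoters held a position, so none is printed. Python 3.11.15, numpy 2.4.6, scipy 1.17.1, pandas 2.3.3 and pysam 0.24.0 were used, and the counting was tested on simulated positions.

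The genes and lists were chosen with earlier results of these data known. No contrast between conditions exists, so no test was made. All 37 genes are accounted for, with positions for those with 2 or more shared regions or a region within 10 kb, and for others named beside them. Sequences are those within 10 kb and those of the gene with the most regions, except that the more distant LAMB2 sequence is not reported here, and the more distant one at ITGA6 was added after its values were seen.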

Additional observations from a re-analysis of the deposited data

How the results depend on the processing

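The canonical transcript start and the removal of repeated sequences were chosen after seeing the data; the other alternatives were listed earlier. Of 55 alternative values, 50 stayed within 1.5 times the count, or within the interval or the spread between replicates, and 5 moved. The number of genes with a shared region ran from 11 to 21 of 37. It was 11 with the gene body or 10 kb, against 21.5% of all protein-coding genes and 30.7% at similar length. It was also 11 with the gene body alone, against 19.9% and 29.4%. In both settings the authors' names still counted. With the gene body or 100 kb it was 21, against 47.7% of all protein-coding genes and 50.7% at similar length. Using 1 replicate at a time, the genes with a position ran from 19 to 21, the distinct regions from 33 to 43, the density from 5.22 to 6.90 per Mb and the WGATAR share from 86.0% to 90.9%. The WGATAR share was 100% with replicates within 50 bp and with 50 kb of the 5′ end alone, and 48.1% with AGATAA in its place. Except for AGATAA, given above, no value over all shared regions was computed for these alternative WGATAR shares and densities. The background values of the main setting therefore cannot be set against them. With the canonical start, ITGB1 was counted through the authors' name alone. Read depth and peak scores, which the files do not hold, limit how far weak binding can be told from none. No paired analysis was possible because the ChIP group alone has files here, so that no comparison between groups was fitted.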
